A study of Mus musculus with 54 samples.

Results

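The transcriptome of Del9599 myogenic progenitors was followed from day 1 to day 2 of differentiation. Del9599 is a line of cultured mouse muscle precursor cells that lack their own emerin and were transduced by lentivirus with a form of emerin, known from patients, from which a short stretch of residues is deleted. The comparison takes the samples labelled Del9599 T=24 and Del9599 T=48, 3 labelled replicates each, which are 6 of the 54 samples of the series. All 17450 genes that the authors listed for this pair of groups were used, of 19653 genes listed anywhere in the series.

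The other lines of the series were wildtype H2K progenitors, EMD-/y progenitors (emerin-null, the cells from which the transduced lines were made), and EMD-/y progenitors transduced with wildtype emerin (+EMD), S54F emerin or Q133H emerin. H2K cells come from mice in which a conditional oncogene, switched on by γ-interferon, keeps precursors dividing. Differentiation was started by changing to a horse serum medium without γ-interferon, and poly-A RNA was sequenced at T=0, T=24 and T=48 h (days 0, 1 and 2). The paper's methods also change the temperature and the carbon dioxide level at that step. Del9599 cells therefore shared with +EMD, S54F and Q133H cells the EMD-/y background, the lentivirus and puromycin selection, and the medium of the mutant lines held puromycin during differentiation too. By the paper's methods, mutant lines were also plated for differentiation at a higher cell density than wildtype and EMD-/y cells. No density is given there for +EMD cells by name. The part of density in the differences between lines was not tested. No source used here says whether a transduced line was cloned, and each genotype was 1 line.

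The deposited tables hold group levels, from which the reads of each of the 54 libraries were recovered (99.9949% of the 19653 genes). The 6 Del9599 libraries held between 18.25 M and 19.62 M reads, within the range of 16.50 M to 19.62 M over all 54. Since the recovered libraries carry no replicate number, they are called A, B and C in falling order of reads within a group. The study used technical replicates of 2 biological replicates, and the labels do not say which sample is which. In both groups libraries B and C were the nearest pair. At day 1 their mean chi-square per gene was 2.57, against 20.5 and 21.4 for library A with either of them, and at day 2 it was 7.90, against 19.1 and 25.6. B and C were therefore summed and counted as 1 sample, so that each test rests on 2 samples a day and its p-values measure the spread between these libraries, which may in part be technical. Levels are given as normalized reads, on a scale set over all 54 libraries by the median ratio to a reference, and are not corrected for gene length.

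Reads of the mouse Emd gene were almost absent from EMD-/y cells and from all lines made from them. Del9599 libraries held 0.829, 0 and 0 normalized reads at day 1 and 0 in each library at day 2, whereas the 9 wildtype libraries held 1151 to 2062. Whether the introduced emerin can be counted by these reads is not given in the sources used here, so its expression was not measured from them. The paper's Western blots of proliferating cells found the Del9599 emerin protein at a level similar to that of emerin in wildtype cells. Its immunofluorescence found myosin heavy chain protein after 48 h in a smaller share of Del9599 cells than of wildtype or EMD-/y cells. Myotube formation, which it scored later, was also lower in Del9599 than in both. The myogenic identity of the cells was checked by their markers, and Myod1, Myog, Des, Cdh15, Mymk, Myh3, Tnnt3 and Acta1 were all detected in every Del9599 library at both days.

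When muscle precursors differentiate they leave the cell cycle, the muscle regulatory factors MyoD and myogenin together with Mef2 proteins switch on muscle genes, the cells fuse to multinucleated myotubes, and the sarcomeres that contract are assembled. Emerin is an inner nuclear membrane protein that binds lamins, the chromatin protein BAF and the histone deacetylase HDAC3. Its loss causes X-linked Emery-Dreifuss muscular dystrophy, a wasting disease of skeletal muscle with heart block.

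From day 1 to day 2, genes of the contractile apparatus rose together and genes of mitosis and DNA replication fell together in Del9599 cells. Of 14202 genes tested with limma, 1052 rose (7.41%) and 618 fell (4.35%) at an adjusted p under 0.05 and at least 2-fold. A further set of genes passed the adjusted p at smaller changes, so that 4081 (28.7%) passed it in all. The median log2 change over all tested genes was 0.000129. Scaling each library to its total reads in place of the median ratio moved that median to -0.128, and the counts were then 912 genes up and 847 down. Leaving out 1 library at a time gave 810 to 1019 genes that rose and 406 to 599 that fell, and the low count of 406 came without day 2 library A. A leave-out of library A keeps only 1 summed sample for that day, so calls lost in it need not reflect the values of library A. In the first principal component, which held 67.8% of the variance, the 3 day 2 libraries lay on 1 side and the 3 day 1 libraries on the other.

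Genes of the sarcomere, the repeating contractile unit of muscle, rose almost without exception. Of 38 tested genes of the sarcomere and its Z-disc, 36 rose and 0 fell, with a median log2 change of 3.74. The called changes ran from 1.68 for desmin (Des), which was not called without day 2 library A, to 5.65 for the titin cap gene Tcap. Leaving out any 1 of the 6 libraries gave 34 to 36 that rose. The share of all reads that fell on this list went from between 0.309% and 0.410% in the day 1 libraries to between 2.50% and 3.10% in those of day 2. In bulk RNA a larger share of cells making a transcript and more transcript per cell cannot be told apart.

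Acta1, skeletal muscle α-actin (gene identifier 11459, chr8:123891758-123894775 in GRCm38), is the main thin filament protein of adult skeletal muscle. It had 6003, 5058 and 5469 normalized reads in day 1 libraries A, B and C and 134546, 129036 and 151895 at day 2. The days were far apart, and the log2 change was 4.61 ± 0.10 (SE) with an adjusted p of 0.00036. Actc1, the cardiac α-actin that embryonic skeletal muscle also makes, went from 8858, 6257 and 6264 normalized reads to 76929, 94563 and 115626 (log2 change 3.59 ± 0.22, adjusted p 0.0017). For both actins every day 2 library exceeded every day 1 library by several fold. Serum response factor, which drives actin genes, binds the CArG box, and MyoD family factors bind the E-box CANNTG. The promoters of both actins and of the myogenin gene Myog are shown because both actins are among the most read genes at day 2 and myogenin is a regulator that rose with them. Each is the 150 bases before the annotated start, 5′ to 3′ on the gene's strand, from RefSeq GRCm38.p6, with CArG boxes, the TATAAA box and E-boxes (only in Myog) in capitals.
Acta1 (chr8:123894776-123894925, minus strand): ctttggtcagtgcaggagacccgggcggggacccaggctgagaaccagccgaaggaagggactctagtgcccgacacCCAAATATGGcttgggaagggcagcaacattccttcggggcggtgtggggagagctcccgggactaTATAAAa
Actc1 (chr2:114052876-114053025, minus strand): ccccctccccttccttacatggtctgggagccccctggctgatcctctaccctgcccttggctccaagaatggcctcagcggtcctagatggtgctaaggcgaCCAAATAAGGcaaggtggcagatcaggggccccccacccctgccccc
Myog (chr1:134289854-134290003, plus strand): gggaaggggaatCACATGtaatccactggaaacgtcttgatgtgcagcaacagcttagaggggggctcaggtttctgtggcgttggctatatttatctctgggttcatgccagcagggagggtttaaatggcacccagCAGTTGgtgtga
The Acta1 CArG box CCAAATATGG lies at -73 to -64 from the start and its TATAAA box at -7 to -2, and the Actc1 CArG box CCAAATAAGG lies at -47 to -38. The capitals in Myog mark CACATG at -138 and CAGTTG at -12.

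All 9 tested sarcomeric myosin heavy chains, the motor proteins of the thick filament, rose, with a median log2 change of 5.64. Embryonic Myh3 went from 3943, 3498 and 3951 normalized reads at day 1 to 56528, 79903 and 99484 at day 2, a fitted 18.5-fold rise (log2 change 4.21 ± 0.22, adjusted p 0.0012). Perinatal Myh8 went from 216, 179.9 and 169 to 7328, 10719 and 13889 (log2 change 5.64 ± 0.34). The day 2 libraries of both genes differed among themselves, with library A lowest and C highest, but none came near a day 1 library. Myh1, an adult fast isoform, went from 1294, 929 and 1009 to 35355, 36779 and 44520.0 normalized reads (log2 change 5.09 ± 0.16, adjusted p 0.00049). Myh7, the slow and cardiac isoform, went from 101, 104 and 116 to 5074, 4988 and 6542 (log2 change 5.66 ± 0.17, adjusted p 0.00037). Fast adult Myh4 was at 1.66, 1.81 and 0.911 normalized reads at day 1 and 166, 365 and 329 at day 2 (log2 change 7.21 ± 1.26, adjusted p 0.014). It was not called without day 1 library A. Myh6, the α isoform of the heart, had no read in any of the 3 day 1 libraries and 27, 45.6 and 32.6 normalized reads at day 2, at least 39.9-fold higher when 3 reads over the day 1 group are taken as the floor. With Myh6 at this bound the list's median was 5.32. Without day 1 library A 7 of the 9 rose and without day 2 library A 8 did. The fast heavy chain genes are close paralogs in 1 cluster, so that the authors' counting may have split reads between them.

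**Figure D1:**
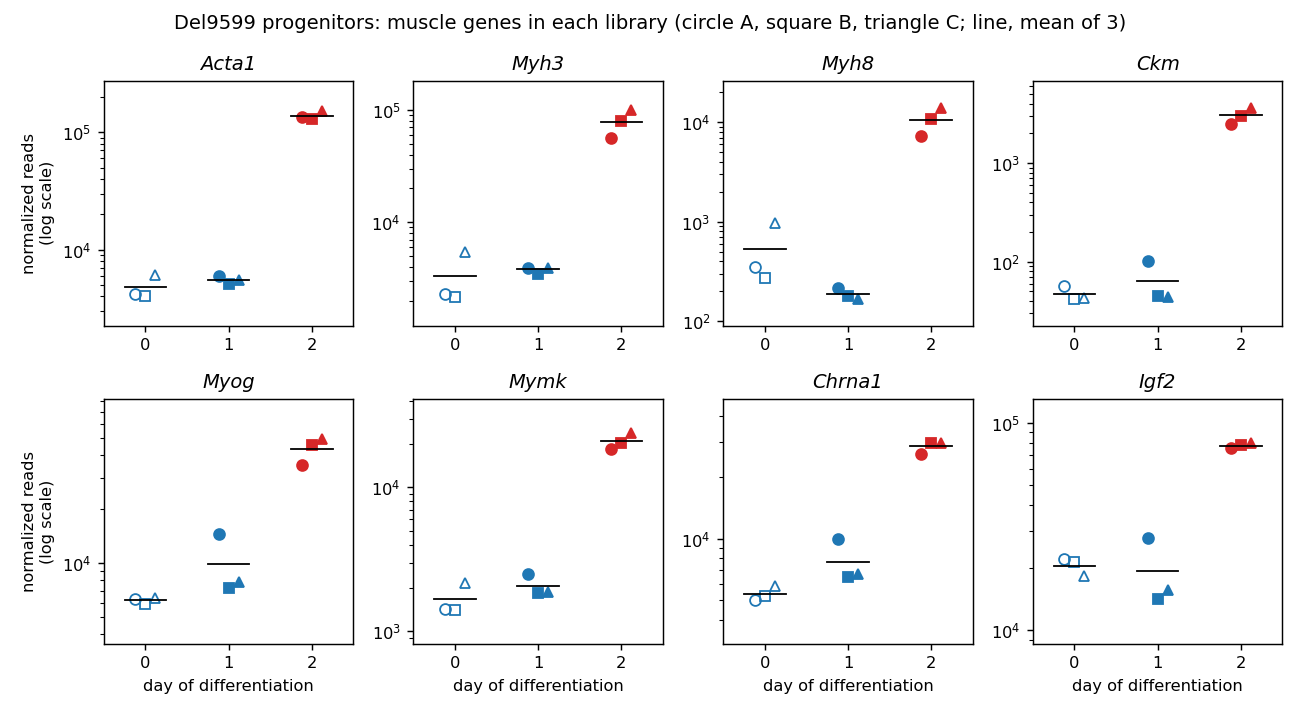
Normalized reads (log scale) of selected muscle genes in each Del9599 library A, B and C at day 0, day 1 and day 2. The day 2 points lie above the day 1 points for each gene, by a fitted 24.4-fold for Acta1 and 18.5-fold for Myh3, and horizontal lines give the mean of the 3 libraries.

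Of 9 muscle light chains, light chain kinases and myosin binding proteins C and H, 8 rose, with a median log2 change of 4.10. Fast light chain Myl1 went from 1775, 879.7 and 945 to 22966, 32185 and 36526 normalized reads (log2 change 4.49 ± 0.35, adjusted p 0.0025). Mybpc1, the slow myosin binding protein C, went from 23.2, 25.3 and 17.3 to 1647, 1169 and 1469 (log2 change 6.03 ± 0.32, adjusted p 0.0012). The kinase gene Mylk2 did not pass the test and overlapped between days, at 60.5, 49.7 and 40.1 and 37.6, 56.3 and 49.5. Of 11 troponins and tropomyosins, which make the thin filament sensitive to calcium, 8 rose and Tpm4 fell. Slow troponin T Tnnt1 went from 588, 326 and 338 to 5635, 5570.1 and 7279 normalized reads (log2 change 3.82 ± 0.25, adjusted p 0.0019). The non-muscle tropomyosin gene Tpm4 went the other way, from 13449.7, 16734 and 16159 to 7857, 6874 and 6762 (log2 change -1.02 ± 0.13, adjusted p 0.0067). Among the sarcomere genes, the titin gene Ttn was one of those that rose. Neb, the thin filament ruler nebulin, went from 1753, 1051 and 1258 to 14184, 17368 and 18237 (log2 change 3.50 ± 0.23). Unc45b, a chaperone that folds myosin, went from 151, 109 and 129 to 3029, 4109 and 5083 (log2 change 4.84 ± 0.32, adjusted p 0.0019). Myom1, a myomesin of the M-band, went from 63, 66 and 60.1 to 2209, 2349 and 2972 (fitted 38.3-fold). For Neb, Unc45b and Myom1 the highest day 1 library stood well below the lowest day 2 library. The 2 tested members of the sarcomere list that were not called were Cryab, a small heat shock protein with a log2 change of 0.96, just under 2-fold, and Nebl, at 7.46, 7.23 and 4.55 and then 0, 0.971 and 2.97 normalized reads (log2 change -2.57, adjusted p 0.073).

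Transcription factors of the muscle programme rose in part. Of the 4 muscle regulatory factors, Myog, Myod1 and Myf6 rose and Myf5 did not pass the test. Myog, myogenin, went from 14496, 7211 and 7794 normalized reads at day 1 to 35116, 45778 and 49328 at day 2 (log2 change 1.97 ± 0.33, adjusted p 0.013). Day 1 library A stood well above B and C, yet all day 2 libraries lay above it. Myod1, the factor that commits cells to muscle, went from 13435, 8657 and 8940.2 to 23696, 22608 and 24532 (log2 change 1.12 ± 0.20, adjusted p 0.015), and was not called without day 2 library A. Myf6 was low throughout, at 6.64, 5.42 and 2.73 and then 21.2, 17.5 and 16.8, and its call was lost without day 1 library A or C or day 2 library A. Myf5 overlapped between the days, at 1170.3, 1609 and 1549.8 and 1462, 1018 and 906. Of 10 genes of the Mef2, Pax and sine oculis homeobox families 3 rose, all of them Mef2 genes. Mef2c went from 97, 75.9 and 85.6 to 1554, 2924 and 2934 normalized reads (log2 change 4.63 ± 0.50, adjusted p 0.0043). Mef2a and Mef2d had log2 changes of 1.30 ± 0.16 and 1.37 ± 0.14. Pax7, the marker of satellite cells, passed the adjusted p but not 2-fold, at 1692, 1428 and 1434 normalized reads and then 932, 1138 and 969 (log2 change -0.64 ± 0.13). Id1, Id2 and Id3, which bind E proteins and keep them from MyoD, did not pass the rule, with log2 changes of 0.82, 0.31 and 0.55. Of 11 Id and bHLH genes Bhlhe41 rose (1.32 ± 0.22) and Twist2, an inhibitor of MyoD, fell (-1.36 ± 0.30). The counts of the regulatory factors were 1 to 3 of 4 in the leave-outs and 2 of 4 with scaling to total reads.

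Genes of cell fusion rose in part. Mymk and Mymx encode the pair of membrane proteins, myomaker and myomixer, that fuse myoblasts. Mymk went from 2497, 1849 and 1879 normalized reads to 18451, 20407 and 23734 (log2 change 3.23 ± 0.17, adjusted p 0.0012) and Mymx from 397, 229 and 260.4 to 991, 1334 and 1599 (log2 change 2.04 ± 0.30, adjusted p 0.0088). No day 2 library overlapped a day 1 library for either. Of 21 fusion and adhesion genes 8 rose and 0 fell. The other risers were the adhesion molecules Jam2, Jam3 and Ncam1, the membrane shaping Bin1 and Cav3, and the repair protein gene Dysf, with log2 changes of 1.41, 1.46, 2.16, 1.53, 3.84 and 2.44. Cdh15, muscle cadherin, passed the adjusted p below 2-fold (log2 change 0.65 ± 0.09), and Cdh2, Myof and Rac1 did not pass.

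Genes that couple the electrical signal at the membrane to contraction rose with few exceptions. Of 23 excitation-contraction coupling genes 20 rose and 0 fell, with a median log2 change of 3.05. Cacna1s, the voltage sensor of the T-tubule, went from 90.4, 77.7 and 56.5 normalized reads to 2046, 2292 and 2749.6 (log2 change 4.91 ± 0.25, adjusted p 0.0012). Ryr1, the calcium release channel it opens, went from 731, 312 and 448 to 4754, 4949 and 5850.2 (log2 change 3.32 ± 0.28, adjusted p 0.0029). Atp2a1, the pump that returns calcium to the sarcoplasmic reticulum, went from 1492, 719.6 and 795 to 15874, 18307 and 21094 (log2 change 4.09 ± 0.32). In each case the lowest day 2 library was several fold above the highest day 1 library. Itpr1, Asph and Kcnj12 were not called.

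At the synapse, 10 of 15 genes rose and 0 fell. Chrna1, the α subunit of the muscle acetylcholine receptor, went from 9952, 6496 and 6685 to 26110.5, 29540.3 and 29534 normalized reads (log2 change 1.78 ± 0.21, adjusted p 0.0052), and the fetal subunit gene Chrng from 1014, 516 and 548 to 3576, 4165 and 5219 (log2 change 2.53 ± 0.31). Musk, the kinase that clusters receptors, went from 1022, 693 and 728 to 2715, 3244 and 3183 (log2 change 1.82 ± 0.19). Agrn, the nerve signal to Musk, did not pass the test (1466, 1311 and 1371 and 1572, 1138 and 1148). Of 19 genes of the dystrophin complex, which ties the cytoskeleton to the matrix, 7 rose and 0 fell, with a median log2 change of 0.89.

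Of 25 genes of muscle metabolism 19 rose and 0 fell, with a median of 2.58. Ckm, the creatine kinase of muscle, went from 101, 45.2 and 43.7 to 2464, 3037 and 3626 normalized reads (log2 change 5.55 ± 0.40, adjusted p 0.0022). Mb, myoglobin, went from 177, 113 and 119 to 3486, 3024 and 3363 (log2 change 4.61 ± 0.19), and Pgam2, a muscle glycolytic enzyme, from 189, 96.7 and 145 to 2685, 2778 and 3756 (log2 change 4.37 ± 0.24). Of the 67 tested subunits of the respiratory chain 0 were called in either direction by limma, also when each of the 3 libraries was counted. Their median log2 change was 0.30, and 16 of them passed the adjusted p with rises under 2-fold.

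**Figure D2:**
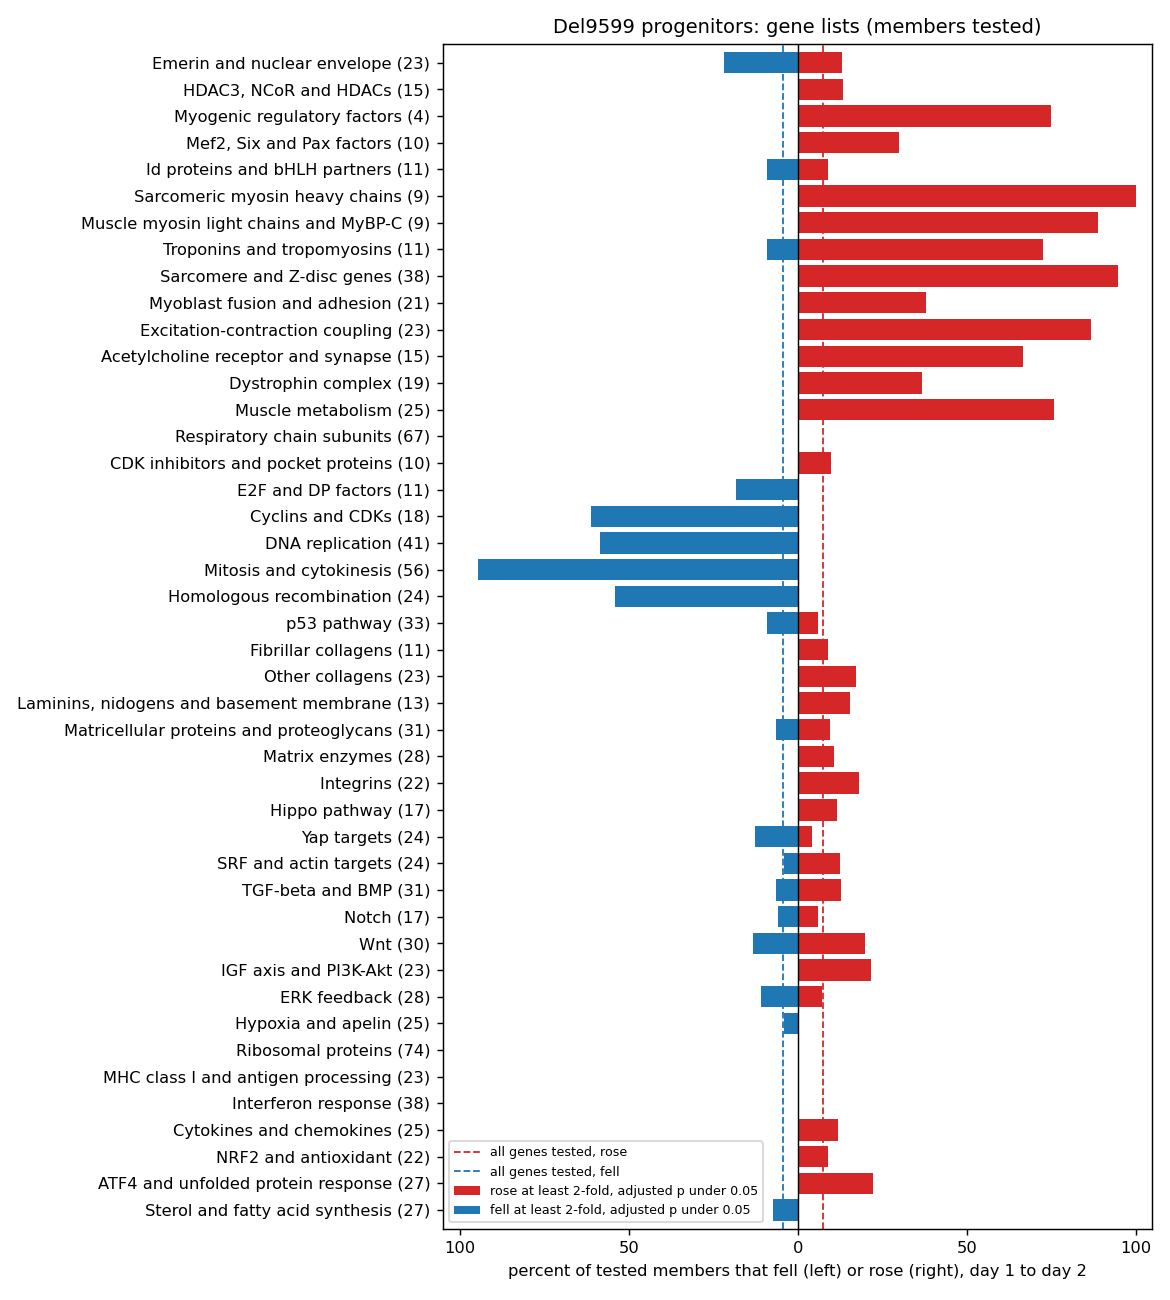
Percent of the tested members of each gene list (number tested in parentheses) that rose, to the right, or fell, to the left, from day 1 to day 2 in Del9599 progenitors, with dashed lines at the percent of all tested genes that rose (7.41%) and fell (4.35%). All 9 myosin heavy chains and 36 of 38 sarcomere genes lie on the right and 53 of 56 mitosis genes on the left, whereas the respiratory chain, ribosomal protein, interferon and antigen processing lists have no bar.

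The second coordinated change was a fall of genes that dividing cells use. Of 56 tested genes of mitosis and cytokinesis 53 fell and 0 rose, with a median log2 change of -1.83, and 53 fell in the leave-out of each of the 6 libraries. The 3 not called were Spc24, Bub3 and Pttg1. Mki67, the proliferation marker Ki-67 (gene identifier 17345, chr7:135689784-135716450 in GRCm38), went from 7574, 8344 and 8682 normalized reads at day 1 to 1774, 2826 and 2777 at day 2 (log2 change -1.84 ± 0.23, adjusted p 0.0061). Day 2 library A was the lowest of the 3, and even the highest day 2 library stood below every day 1 library. Cdc20, an activator of the anaphase-promoting complex, went from 3912, 4199 and 4243 to 858, 1027 and 1113 (log2 change -2.07 ± 0.14, adjusted p 0.0019). Plk1, a mitotic kinase, went from 2433, 3129.9 and 2944 to 581, 675 and 749 (log2 change -2.06 ± 0.17). Foxm1 and Mybl2, transcription factors of mitotic genes, had log2 changes of -2.02 ± 0.15 and -2.31 ± 0.23. All of these transcripts were still measured at day 2.

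Many promoters of mitotic genes hold CCAAT boxes, which NF-Y binds, and the CHR element TTTGAA, through which the DREAM complex represses them in resting cells. The promoters of Cdc20 and Cdk1, which fell, are shown with both in capitals (CCAAT also as its reverse complement ATTGG), again as 150 bases before the start from RefSeq GRCm38.p6.
Cdc20 (chr4:118437344-118437493, minus strand): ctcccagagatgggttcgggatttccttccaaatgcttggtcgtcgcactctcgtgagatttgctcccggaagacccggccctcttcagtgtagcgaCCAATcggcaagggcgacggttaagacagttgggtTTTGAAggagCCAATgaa
Cdk1 (chr10:69352913-69353062, minus strand): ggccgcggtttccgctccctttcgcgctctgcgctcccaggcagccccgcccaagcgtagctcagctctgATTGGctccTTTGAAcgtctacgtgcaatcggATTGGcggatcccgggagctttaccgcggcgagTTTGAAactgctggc
In Cdc20 TTTGAA stands at -18 and CCAAT at -53 and -8, and in Cdk1 TTTGAA at -71 and -15 and ATTGG at -80 and -48.

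Of 18 cyclins, Cdks and their Cdc25 and Wee1 regulators 11 fell and 0 rose. Cdk1, the kinase of mitotic entry, went from 2812, 2692 and 2617 to 686, 943 and 1065 normalized reads (log2 change -1.69 ± 0.19, adjusted p 0.0045), and its partner Ccnb1 from 3218, 3329.7 and 3306 to 919, 1116 and 999 (log2 change -1.72 ± 0.11). The G1 cyclin gene Ccnd1 fell from 8708, 11622 and 11109 to 4281, 4497 and 3929 (log2 change -1.23 ± 0.14), whereas Ccnd3, which muscle keeps, passed the adjusted p with a log2 change of 0.63 ± 0.11. Genes of S phase fell by less. Of 41 DNA replication genes 24 fell, with a median of -1.10, and 16 more were lower at the adjusted p by less than 2-fold. The count of 24 ranged from 18, without day 1 library A, to 26 in the leave-outs. Tk1, thymidine kinase, went from 1558, 1399 and 1329 to 179, 285 and 332 (log2 change -2.53 ± 0.24, adjusted p 0.0035) and Mcm5, a subunit of the replicative helicase, from 3829, 3591 and 3626 to 1169, 1405 and 1654 (log2 change -1.46 ± 0.15). Of 24 genes of homologous recombination 13 fell, among them Brca1, from 1309, 1307 and 1299 to 349, 438 and 440.1 (log2 change -1.70 ± 0.14). The days did not overlap for any of these genes.

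Regulators of cell cycle exit moved less. Of 10 Cdk inhibitors and pocket proteins Cdkn1c, the inhibitor p57, rose from 2452, 1636 and 1682 to 5336, 8759 and 10736 normalized reads (log2 change 1.84 ± 0.33, adjusted p 0.015). Cdkn1a, the inhibitor p21, and Rb1, the retinoblastoma gene, passed the adjusted p below 2-fold, with log2 changes of 0.82 ± 0.09 and 0.75 ± 0.12. Both had changed more in the day before, by 1.92 and 1.84 from day 0 to day 1. Of 11 E2F and DP genes, E2f7 and E2f8, repressors that are themselves cell cycle genes, fell, and the call of E2f8 was lost without day 2 library A. Of 33 p53 pathway genes Gadd45a and Perp rose and Gtse1, Chek1 and Plk3 fell, and Plk3 lost its call without day 1 library B or day 2 library A or C. Mdm2, the p53 antagonist, was lower at -0.68 ± 0.09, below 2-fold, after 2.40 from day 0 to day 1.

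**Figure D3:**
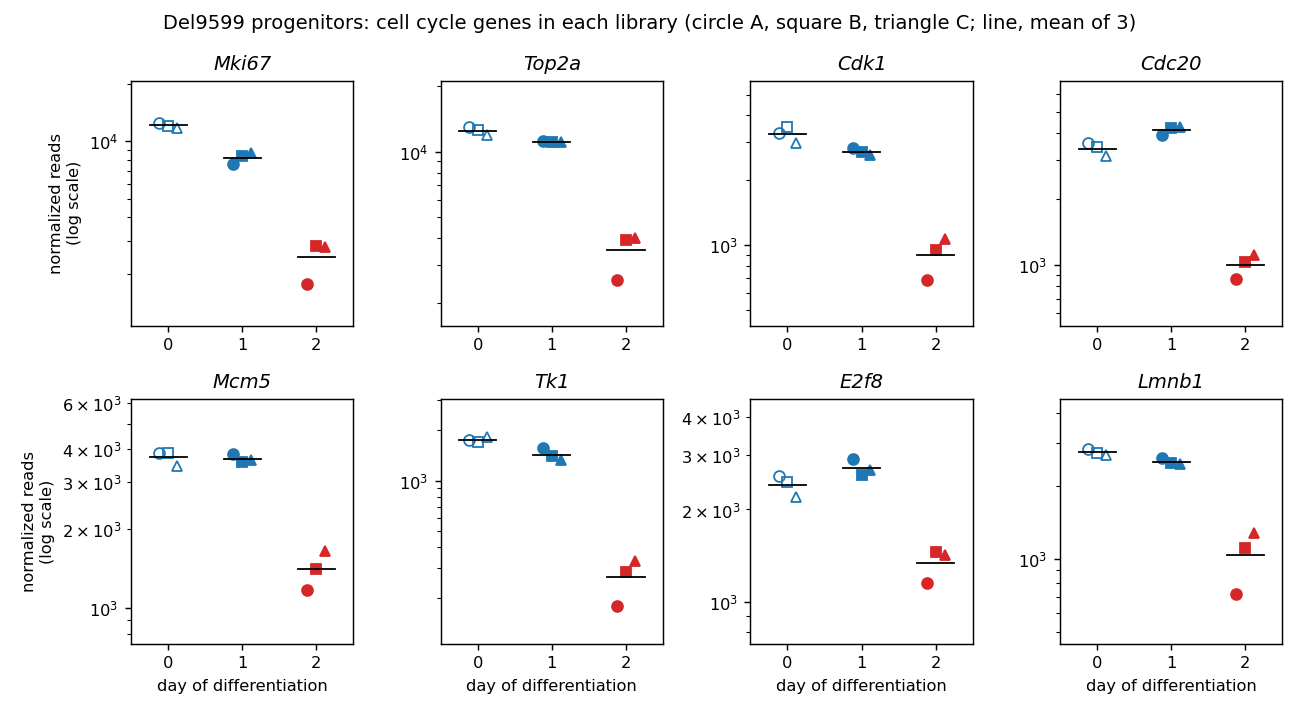
Normalized reads (log scale) of selected cell cycle genes and of Lmnb1 in each Del9599 library A, B and C at day 0, day 1 and day 2, with lines at the mean of the 3 libraries. For each gene the 3 day 2 points lie below all day 0 and day 1 points, for Mki67 by a fitted 3.57-fold of day 1 over day 2.

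Among 23 tested genes of emerin's surroundings at the nuclear envelope 3 rose and 5 fell. The nesprin gene Syne1, whose product links the nucleus to the cytoskeleton and has muscle isoforms, rose from 1067, 854 and 973 to 2637, 3034 and 2953 normalized reads (log2 change 1.52 ± 0.13, adjusted p 0.0028). The muscle envelope proteins encoded by Tmem38a and Plpp7 had log2 changes of 2.22 ± 0.19 and 4.16 ± 0.35. Those that fell were the lamin gene Lmnb1, from 2617, 2486 and 2459 to 719.6, 1112 and 1283 (log2 change -1.41 ± 0.24, adjusted p 0.013), the lamin B receptor gene Lbr (-1.13 ± 0.16), the second large nesprin gene Syne2 (-1.03 ± 0.17), Nrm (-1.34 ± 0.38) and Ankle1 (-1.48 ± 0.35). Each of the 5 lost its call without 1 or more libraries, Lmnb1 without day 1 library A, Lbr and Ankle1 without day 2 library A, Nrm without either, and Syne2 without day 1 library A or C or day 2 library A. Lmna, the A-type lamin gene, overlapped between days, at 17961, 21099 and 21409 and 19369.5, 15548 and 17566. The LEM domain genes Lemd2 and Lemd3 had log2 changes of 0.16 ± 0.10 and 0.31 ± 0.10, neither past the adjusted p. Hdac3, the deacetylase that emerin binds, was at 1772, 1794 and 1740.1 and then 1611, 1506 and 1611 normalized reads (log2 change -0.16 ± 0.09, adjusted p 0.21). Of 15 HDAC and NCoR genes only Hdac9 and Hdac11 rose, by 3.63 ± 0.25 and 2.09 ± 0.16 on the log2 scale.

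Some signalling genes were called on each list. Over all tested genes 7.41% rose and 4.35% fell. No list here or in the paragraphs below was tested against these shares. Of 23 genes of the insulin-like growth factor axis 5 rose and 0 fell. Igf2, a growth factor that differentiating myoblasts secrete, went from 28036, 14088 and 15697 normalized reads to 75926, 77887 and 79633 (log2 change 1.92 ± 0.29, adjusted p 0.01), and Igf1 from 337, 278 and 332 to 1318, 1024 and 1005 (log2 change 1.85 ± 0.16, adjusted p 0.003). Fbxo32, the atrophy ubiquitin ligase atrogin-1, went from 746, 706 and 775 to 2516, 1777 and 1527 (log2 change 1.45 ± 0.21). The others were the kinase gene Akt2 and Igfbp5, whose call was lost without day 2 library A or B. Of 31 genes of TGF-β and BMP signalling, the ligands Tgfb2 and Tgfb3, the muscle growth inhibitor Mstn and its antagonist Fst rose. Mstn, myostatin, went from 26.5, 12.7 and 12.7 to 384, 697 and 723 (log2 change 4.98 ± 0.73, adjusted p 0.009). A further 2 fell, among them Chrdl1, an antagonist of BMPs, and both lost the call in 5 of the 6 leave-outs. Of 30 Wnt genes 6 rose and 4 fell, of which Fzd2, Fzd9 and Tcf7l1 kept the call in each of the 6 leave-outs. The leave-outs gave 2 to 5 that rose and 1 to 3 that fell, with 2 rising without day 1 library A and 1 falling without day 2 library A. The receptor gene Fzd2 rose from 862, 1064 and 1095 to 3686, 2256 and 2763 (log2 change 1.64 ± 0.21), and the transcription factor gene Tcf7l1 fell from 1015, 975 and 1112 to 397, 475 and 488 (log2 change -1.21 ± 0.13). Of 17 Notch genes Hes6, which favours myogenesis, rose (1.29 ± 0.14) and Hey2 fell (-1.23 ± 0.27), the latter not without day 1 or day 2 library A. Of 28 genes of ERK feedback Spry1 and Fgf21 rose, and the ETS factor gene Etv4, Fosl1 and Dusp5 fell. Etv4 lost its call without day 2 library A, and Dusp5 without day 1 or day 2 library A.

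Of 17 genes of the Hippo pathway the transcription factor gene Tead4, from 678, 569 and 598 to 2303, 2440.0 and 2667 normalized reads (log2 change 1.96 ± 0.12), and its muscle cofactor Vgll2 rose. Of 24 Yap targets Tgfb2 rose and Nuak2, Cdc20 and Birc5 fell, the last 2 of which are mitotic genes. Of 24 SRF and actin targets Acta2, Hspb7 and Hspb8 rose and Tagln2 fell. Acta2, smooth muscle α-actin, went from 16328, 18917 and 19533 to 59844, 49412 and 57548 (log2 change 1.68 ± 0.12, adjusted p 0.0021).

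Matrix genes were mostly not called. Of 11 fibrillar collagen genes 1 rose and of 23 other collagen genes 4 rose, which without day 1 library A were 0 and 2. The fibrillar collagen Col1a1 was at 1156, 1816 and 1868 and then 2368, 1422 and 2305 normalized reads (log2 change 0.50 ± 0.24, adjusted p 0.18). Col25a1, a transmembrane collagen of muscle that motor axons need, went from 19.9, 52.4 and 30 to 1005, 559 and 653 (log2 change 4.60 ± 0.56, adjusted p 0.0059). Of 31 matricellular proteins and proteoglycans Ogn, Dcn and Thbs2 rose and Tnc and Thbs3 fell. Ogn, osteoglycin, went from 656, 717 and 814 to 6440.1, 5741 and 5889.8 (log2 change 3.10 ± 0.12, adjusted p 0.00068). Of 22 integrins and their partners 4 rose and 0 fell, and without day 1 library A 5 rose and 2 fell. Itgb1bp2, melusin, which binds the β1 integrin in muscle, went from 26.5, 25.3 and 25.5 to 1332, 1484 and 1806 (log2 change 5.83 ± 0.32), and Itgb6 from 167, 116 and 134 to 835, 884 and 959 (log2 change 2.66 ± 0.17). Without day 2 library A the calls of Dcn and Thbs3 were lost, and without day 1 library A that of Thbs2.

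As on the respiratory chain list, 0 genes were called among the 74 ribosomal proteins, the 38 interferon response genes and the 23 genes of MHC class I and antigen processing, with medians of -0.08, -0.42 and -0.13. Counting each of the 3 libraries left the ribosomal proteins at 0 and gave 1 gene that fell on either of the others. In the leave-outs 1 antigen processing gene fell without day 2 library B or C, and 1 interferon gene without day 1 library A. At the adjusted p alone, 1 ribosomal protein was lower, 1 interferon gene higher and 5 lower, and 3 antigen processing genes higher and 4 lower. Of 27 genes of the unfolded protein response and ATF4 6 rose, among them Herpud1, of protein disposal at the endoplasmic reticulum, from 887, 768 and 757 to 2295, 3045 and 3177 (log2 change 1.71 ± 0.18). Of 22 NRF2 genes 2 rose, of 25 cytokine genes 3 (Tnfaip3, Ccl7 and Ccl8), of 28 matrix enzymes 3 and of 13 laminins and basement membrane genes 2. Without day 2 library A these were 1 NRF2 gene, 1 matrix enzyme and 1 laminin gene, and without day 1 library C 1 NRF2 gene. Without day 1 library A 2 matrix enzymes rose and 2 fell, 1 laminin gene rose and 1 fell, and 2 cytokine genes fell. Of 27 genes of sterol and fatty acid synthesis 2 fell, and of 25 hypoxia and apelin genes 1 did. The first count was 1 without day 1 library C or day 2 library B, and the second 0 without day 2 library A or C.

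Markers of other cell types were read beside these results, and their part in them was not tested. Of 10 smooth muscle markers, all of them tested, 5 rose (Acta2, Des, Myh11, Synpo2 and Lmod1), of which Acta2 and Des are also genes of myoblasts, and the summed share of the list went from 0.199 to 0.225% of reads at day 1 to 0.527 to 0.597% at day 2. Des lost its call without day 2 library A and Myh11 without day 1 library A. Of 12 fibroblast markers 8 were tested and 1 rose (Dcn), with a share of 0.106 to 0.126% and then 0.0957 to 0.128%, and Lum was at 0 in every library of both days. Of 12 adipocyte markers 4 were tested, Plin4 and Lpl rose and Cebpa fell, with shares of up to 0.00828%, and Adipoq and Plin1 were at 0. Of 12 chondrocyte or bone, 10 endothelial and 10 immune markers 9, 6 and 3 were tested and 1 each rose (Bglap, Vwf and Itgam), with shares of up to 0.0133%, 0.000589% and 0.000536%. Acan, Emcn and Tyrobp were at 0 in every library of both days. Of 10 neural markers 3 were tested and 0 were called, with a share of up to 0.00444%. The calls of Dcn, Bglap, Plin4, Cebpa and Vwf were lost without day 2 library A, and those of Cebpa, Lpl, Vwf and Itgam without day 1 library A.

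Of the 10 largest rises, counting genes whose higher group had a deposited level of 100 or more, Capn3, Dhrs7c, Ppp1r3a and Nmrk2 have not yet been described. All 4 had few reads in the day 1 libraries and were well measured at day 2. Capn3, the muscle protease calpain-3, went from 10.8, 15.4 and 6.37 to 662, 924 and 1136 (log2 change 6.25 ± 0.67, adjusted p 0.0041). Dhrs7c, a dehydrogenase of the sarcoplasmic reticulum, went from 5.81, 6.33 and 1.82 to 279, 434 and 538 (log2 change 6.28 ± 0.86). Ppp1r3a, which brings phosphatase to muscle glycogen, went from 2.49, 0.904 and 0 to 211, 171 and 157 (log2 change 7.16 ± 0.76). Nmrk2, a kinase of NAD synthesis in muscle, went from 4.98, 3.62 and 4.55 to 359.8, 223 and 245 (log2 change 5.87 ± 0.65). The largest falls by the same rule included, besides Tk1, Mybl2 and Etv4, Aqp1, the water channel aquaporin-1, from 806, 596 and 557 to 52.1, 116 and 109 (log2 change -2.98 ± 0.39, adjusted p 0.0066), and Hhip, a hedgehog binding protein, from 68.8, 141 and 113 to 18.3, 5.82 and 9.89 (log2 change -3.16 ± 0.60). Pimreg and Depdc1b, genes of mitosis, had log2 changes of -2.54 ± 0.16 and -2.36 ± 0.33, and Fabp5, Fam131b and Ccdc184 of -2.26 ± 0.43, -2.50 ± 0.54 and -2.80 ± 0.71. Hhip, Fabp5 and Fam131b were not called without day 2 library A, and Ccdc184 not without any 1 of the 3 day 2 libraries.

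In the 250 bases before the start of 1014 annotated starts of 727 genes that rose, the E-box CANNTG occurred on either strand in 69.7%, against 57.9% of the 13580 starts of 10583 tested genes and 56.6% of the 553 starts of 455 genes that fell. For CAGCTG, one form of that E-box, the shares were 21.1%, 12.5% and 14.1%, for the CArG box 2.17%, 1.17% and 0.904%, and for the MEF2 box 4.93%, 1.61% and 1.27%. In the same order of rising, tested and falling genes, CCAAT occurred in 31.8%, 35.3% and 43.6%, TTTGAA in 11.7%, 10.6% and 17.5%, and the E2F motif TTTCCCGC in 0.888%, 1.63% and 3.25%. TATAAA occurred in 10.5%, 6.66% and 5.42%. Over all 32851 annotated starts, tested or not, CANNTG occurred in 66.2%, CAGCTG in 13.0%, the CArG box in 1.47% and the MEF2 box in 2.92%. There CCAAT occurred in 33.8%, TTTGAA in 16.0%, TTTCCCGC in 0.895% and TATAAA in 12.4%. These shares are a description of letters and not of binding.

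The day before, from day 0 to day 1, 862 of 14140 tested genes rose (6.10%) and 701 fell (4.96%) in the same line. Of 37 sarcomere and Z-disc genes tested there 2 rose and 2 fell, with a median log2 change of 0.14, and 0 of 56 mitosis genes were called, with a median of 0.02. Acta1 was at 4190.0, 4034 and 6029 normalized reads at day 0 (log2 change to day 1 0.19) and Mki67 at 12565, 12020.3 and 11826 (-0.57). Several lists were called in larger number in this earlier step, among them the p53 pathway, with 18 of 33 rising, sterol and fatty acid synthesis, with 16 of 27 rising, the interferon response, with 12 of 38 falling, Yap targets, with 10 of 24 falling, antigen processing, with 9 of 23 falling, and matrix enzymes, with 8 of 27 falling and 4 rising. Of 919 genes that rose from day 1 to day 2 and were tested in both steps, 59 had risen and 80 had fallen before, and of 618 that fell 55 had risen and 42 had fallen. Both steps share the day 1 libraries.

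The study asked how the transitions of mutant progenitors differ from that of wildtype progenitors, and each line has libraries of its own. Wildtype cells had 48569, 60752 and 74091 normalized reads of Acta1 at day 1 and 262277, 328490.0 and 275350.0 at day 2, a log2 change of 2.38 against 4.61 in Del9599. Over all genes, 1151 were higher and 1500 lower in Del9599 than in wildtype at day 1 (8% and 10.4%), and 1688 and 1199 at day 2 (11.7% and 8.33%). The sarcomere and Z-disc list took 1.39 to 2.01% of wildtype reads at day 1 and 4.37 to 4.96% at day 2, so that the Del9599 share of day 2 (2.50 to 3.10%) lay between the 2 wildtype days. The list's median log2 change was 1.70 in wildtype, 1.57 in EMD-/y, 2.49 in +EMD, 2.21 in S54F, 2.86 in Q133H and 3.74 in Del9599. The Q133H day 2 libraries differed widely, with 0.570 to 2.18% of reads on this list, so the Q133H median is uncertain. Wildtype Mki67 stood at 4786, 4403 and 3609.9 normalized reads at day 1 and 70.3, 108 and 55 at day 2, and the mitosis list fell from 0.389 to 0.549% of wildtype reads to 0.0495 to 0.0530%, whereas in Del9599 it fell from 0.868 to 0.929% to 0.217 to 0.286%. The median of this list was -4.34 in wildtype, -3.26 in EMD-/y, -1.79 in +EMD, -3.50 in S54F, -2.35 in Q133H and -1.83 in Del9599. Its share in the Q133H day 2 libraries ran from 0.0991 to 0.278%. In this paragraph log2 changes of Del9599 come from the fit of Del9599 alone. Those of the other lines come from the fit of all lines.

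**Figure D4:**
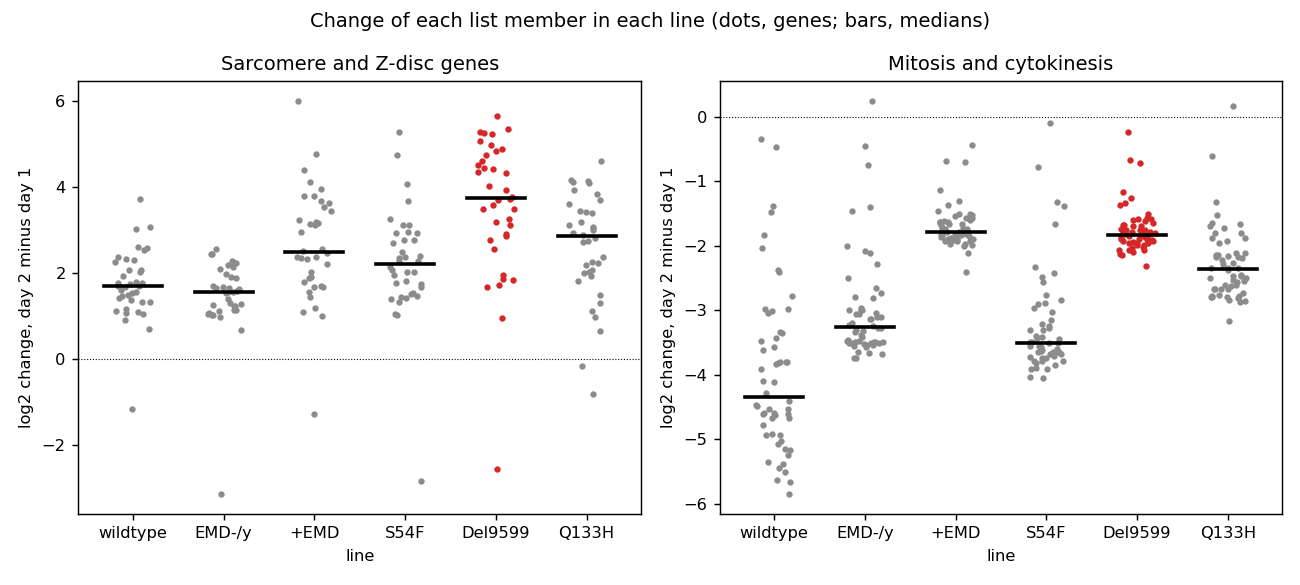
Log2 change from day 1 to day 2 of each member of the sarcomere and Z-disc list (left) and of the mitosis and cytokinesis list (right) in each of the 6 lines, with bars at the medians. Values of Del9599 come from its own fit and those of the other lines from the fit of all lines. Del9599 has the highest median for the sarcomere (3.74), and for mitosis its median (-1.83) lies near that of +EMD (-1.79) and above the 4 others. The day 2 libraries of Q133H differed widely among themselves on both lists.

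The difference between the changes was tested gene by gene in a fit of all 6 lines. Against wildtype, 453 of 14395 genes changed more positively in Del9599 (3.15%) and 201 more negatively (1.40%). Of the mitosis genes 35 of 56 were among the first and 0 among the second, with a median difference of 2.49. For Mki67 the difference was 4.01 ± 0.81 on the log2 scale (adjusted p 0.0081), for Ccnb1 3.50 ± 0.82 (adjusted p 0.016) and for Top2a, the topoisomerase of dividing cells, 2.79 ± 0.69 (adjusted p 0.02). All 3 thus fell less in Del9599. Of the sarcomere and Z-disc genes 5 of 39 changed more positively, with a median difference of 2.02, and the count was 21 of 38 in a fit of these 2 lines alone. Neb, Unc45b, Ldb3, Xirp1 and Actn3 were the 5, the difference of Neb being 2.11 ± 0.50 (adjusted p 0.017). Acta1, at 2.24 ± 0.73, missed the threshold in the fit of all lines (adjusted p 0.057). In this fit 1147 genes rose and 659 fell in Del9599 (7.97% and 4.58%), and 1119 rose and 1431 fell in wildtype (7.77% and 9.94%). Among the leave-outs of 1 library, the counts of differences moved most without wildtype day 2 library B or Del9599 day 2 library A. Each of these leaves its group with 1 summed sample. Such a fit cannot show whether the values of that library mattered.

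Other listed genes also changed differently from wildtype. In wildtype Id3 was at 889.5, 1494 and 1076 normalized reads at day 1 and 278, 226 and 273 at day 2, and in Del9599 at 1883, 1187 and 1176 and then 2436, 1853 and 2017. The differences were 2.39 ± 0.51 for Id1 and 2.63 ± 0.51 for Id3 (adjusted p 0.011 and 0.0069). Fbxo32, Igf1, Ogn and Syne1 had differences of 1.77 ± 0.29, 1.93 ± 0.47, 2.57 ± 0.54 and 1.81 ± 0.34 (adjusted p 0.0031, 0.019, 0.0097 and 0.006). For Syne1 wildtype was at 3648, 3583 and 3823 at day 1 and at 3217, 2862 and 3134 at day 2, both above the Del9599 libraries of day 1. Cyp26b1, which degrades retinoic acid, fell in Del9599 from 532, 536 and 537 to 177, 241 and 203 (log2 change -1.39 ± 0.15), and differed by -1.71 ± 0.41 from wildtype, where it was at 213, 196 and 175 and then 250.1, 188 and 322.

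**Figure D5:**
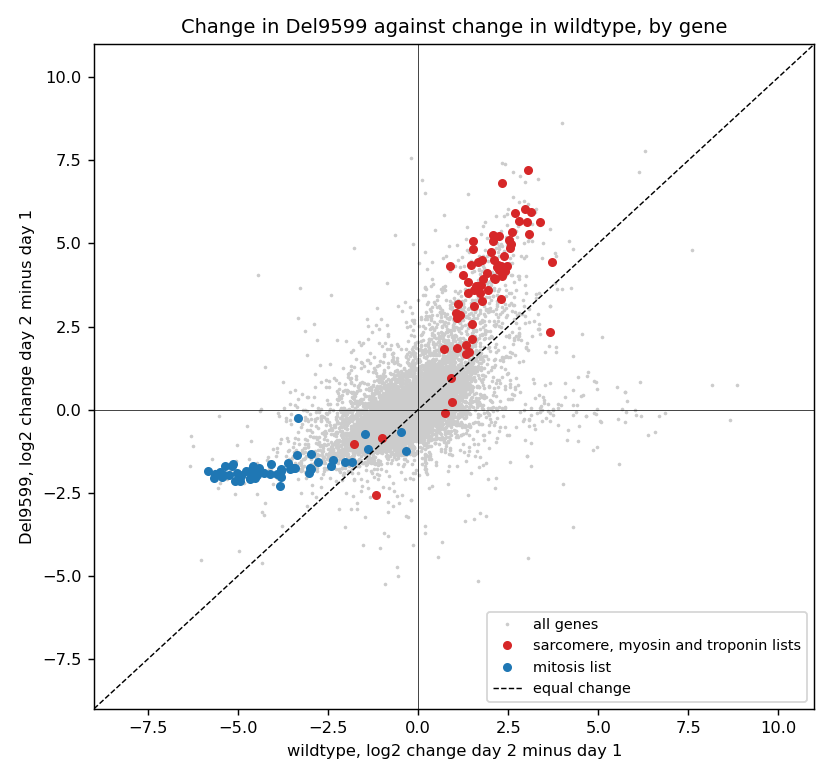
Log2 change from day 1 to day 2 in wildtype (horizontal, from the fit of all lines) against Del9599 (vertical, from its own fit), 1 point per gene. The sarcomere, myosin and troponin lists and the mitosis list are marked, with a dashed line of equal change. Most marked muscle genes lie above the line among the rising genes and most mitosis genes above it among the falling genes, where wildtype changes spread widely and Del9599 changes keep near their median of -1.83.

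Against EMD-/y, the line from which Del9599 was made, 275 genes changed more positively (1.91%) and 159 more negatively (1.10%). A fit of both lines alone gave 121 and 90, and without Del9599 day 2 library A the first count was 120 and without day 1 library B 167. Of the sarcomere and Z-disc genes 6 of 39 changed more positively and of the mitosis genes 4 of 56, with median differences of 2.16 and 1.36. Against S54F the counts were 11 (0.0764%) and 6 (0.0417%), and 351 and 33 in a fit of both lines alone. At day 2 of S54F the summed pair was hardly nearer than another, with mean chi-squares of 9.12 for it and 10.0 and 18.6 for the others. Against +EMD and against Q133H 0 genes passed (0%) by limma in either direction, although 1356 and 1402 had an unadjusted p under 0.05 and the fit that counts each of the 3 libraries gave 92 and 76 for +EMD and 140 and 106 for Q133H. Day 2 library A of Q133H stood apart from its pair, and without it 115 genes changed more positively and 123 more negatively in Del9599 than in Q133H. These comparisons share the Del9599 libraries.

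In the deposited group levels, compared with a pseudocount of 1 and no test, 1196 of 13363 genes rose at least 2-fold (8.95%) and 700 fell (5.24%). These levels are not plain means, and for some genes with few reads they changed less than the recovered reads did. Of 1883 of these genes also listed for wildtype, 1043 (55.4%) moved the same way at least 2-fold there, 669 the same way by less, and 171 the other way. The share was 52.2% in EMD-/y and 49.3% in Q133H. Lines also differed in how many of all tested genes were called. In the test on reads with all lines, 7.77% rose and 9.94% fell in wildtype. In EMD-/y these were 7.31% and 9.36%, and in Q133H 4.67% and 3.63%. The overlap shares therefore do not rank the lines by likeness to Del9599. The Del9599 change lay above that of all 5 other lines by at least 2-fold for 88 of 14042 genes (0.627%) and below it for 6 (0.0427%). Among those with a deposited level of at least 100 Hpgd, Nmrk2, Dhrs7c and Ppp1r3a were among the farthest above. Hpgd, a prostaglandin dehydrogenase gene, was at 0, 0.904 and 0 and then 199, 38.8 and 70.2, with day 2 library A far above B and C, and was not called without day 1 library A or C. The farthest below, none of them by 2-fold, were Chst10, Galm, Cyp26b1, Runx1t1 and Prl2c3, of which Cyp26b1 and Prl2c3 fell by the test and the others did not pass it. Prl2c3 belongs to a family of near-identical genes whose reads cannot be told apart with certainty, and it lost its call in 4 of the 6 leave-outs.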

How the data were processed

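RNA of H2K myogenic progenitors was sequenced on BGISEQ-500. The authors used SOAPnuke as read filter, HISAT2 as aligner (mm10) and DESeq2 for the group levels. Whether reads were counted by strand is not given in the sources used here. The deposited signal values are pairs of group levels of read counts divided by size factors set within each of the 27 tables. The average of a pair is the mean over the libraries of both groups. The split of a pair is not that of the recovered reads. For Emd it gave a log2 change of -0.0188, although no day 2 library held a read. Columns of fold changes and p-values made by the authors were not used. The planned comparison of these levels (pseudocount 1, level of at least 10 in the higher group, 2-fold) was kept.

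Because each library recurs in several tables, the whole reads behind the levels could be solved for 19652 of 19653 genes. The table of Del9599 day 1 against day 2 was then left out. Reads solved from the other tables gave the average of its pairs within a relative 1e-09 for 99.7918% of 17291 genes. The size factors used for this came from the left-out table itself, and only genes with a near-exact solution were compared. The table was thus not fully held out. A test added after seeing the files ran on these reads. Genes with a mean of at least 5 normalized reads were fitted with limma 3.58.1 (voom, prior count 0.5) in R 4.3.3, with the 2 nearest libraries of each group summed, and p-values were adjusted over all tested genes by Benjamini and Hochberg. The recovery and the fit were also run on simulated data, the fit with 2 cultures a day of which 1 was sequenced in 2 libraries. Whether the real libraries have this structure is not given, and nothing is concluded from these runs here. Differences between lines came from 1 fit of all 6 lines. A level set across tables rests on a common scale of 54 libraries. Promoter windows came from RefSeq GRCm38.p6.

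The comparison and the gene lists were chosen with earlier results of these data known. Named genes are the largest changes in the deposited levels (level of at least 100) and called members of lists of up to 12 genes. They are also the most changed called members of longer lists, the most read uncalled members, and those farthest outside the other lines. Further list members were named for their role, with their values known. Predicted genes were tested but not named, and some genes that the rule names are not reported here. Alternatives were pseudocount, filter, fold threshold, scaling, limma-trend, each of the 3 libraries counted, each library left out, and fits of 2 lines.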

Additional observations from a re-analysis of the deposited data

Results flagged for a closer look

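The changes of Del9599 differed from those of wildtype, EMD-/y or S54F by the test of the difference for the following numbers of genes. Against wildtype 453 changed more positively and 201 more negatively, against EMD-/y 275 and 159, and against S54F 11 and 6. Single genes with large differences from wildtype follow as values.

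Amacr, an enzyme of branched fatty acid breakdown, differed by 5.17 ± 1.20 on the log2 scale (adjusted p 0.015). It was at 507, 345 and 392 normalized reads at day 1 and 183, 209.6 and 202 at day 2 in Del9599, at 527, 400.2 and 262 and then 42.4, 0 and 3.51 in wildtype, and at day 2 at 0, 0 and 0 in EMD-/y, 0, 0 and 0 in +EMD, 88, 0 and 146 in S54F and 309.7, 326 and 324 in Q133H. The 3 S54F libraries thus differed widely among themselves.

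Neil3, a DNA glycosylase gene of dividing cells, differed by 4.63 ± 1.04 (adjusted p 0.013). It was at 391, 366 and 385 and then 83, 134 and 151 in Del9599 and at 189.9, 169 and 144 and then 0, 7.02 and 1.17 in wildtype. Mki67 differed by 4.01 ± 0.81 (adjusted p 0.0081).

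In the negative direction Cybrd1, a cytochrome b reductase gene of iron uptake, differed by -4.85. It had 3.32, 3.62 and 1.82 and then 4.82, 0 and 0 normalized reads in Del9599 and 35.7, 35.9 and 31.6 and then 261, 324 and 247 in wildtype. The Del9599 libraries were near the floor at both days, so the size of this difference is uncertain. Pebp1, which encodes an inhibitor of Raf signalling, differed by -3.81 ± 0.32 (adjusted p 2.8e-05). Wildtype Pebp1 was at 2514, 2661 and 2494, 143, 367 and 305 and 3412, 4007 and 3715 at days 0, 1 and 2, so that day 1 was the low day, whereas in Del9599 day 0 was low, at 565, 728 and 659, 2879.7, 3349 and 2945 and 3029, 3474 and 3784. Gm4737 differed by -3.86 ± 0.55 (adjusted p 0.0013) and had the same low days, at 145, 97.2 and 107, 12.5, 9.23 and 9.48 and 81.5, 90.1 and 82 in wildtype and 10.8, 16.9 and 32.7, 196, 216 and 216 and 95.5, 131 and 109.8 in Del9599. In +EMD, day 0 libraries A, B and C held 2482, 752 and 473 normalized reads of Pebp1 and 147, 12.8 and 5.1 of Gm4737, so that A stood apart from the other two for both genes.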

How the results depend on the processing

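No paired analysis was possible because the recovered libraries carry no replicate number. No result with a called value reversed. In the deposited levels, thresholds of 1.5-fold and 4-fold gave 2142 and 485 genes up in place of 1196, and 1906 and 40 down in place of 700. Genes above all other lines (88) numbered 239 and 4 at these thresholds and 57 with a pseudocount of 5. Genes below them (6) numbered 33 and 0, 10 with no pseudocount, 3 with a pseudocount of 5 and 1 at a minimum level of 50. They numbered 16 with levels from the tables against wildtype and 3 without predicted genes. At 4-fold the share called the same way was 28.8% in wildtype and 16.3% in EMD-/y. Called list members (344) were 525 and 143 at 1.5-fold and 4-fold. In the test on reads 1591 and 568 genes rose and 1368 and 61 fell at these thresholds, and with each library left out in turn 810 to 1019 rose and 406 to 599 fell. Counting each of the 3 libraries, the Del9599 change was more positive than the wildtype change for 1160 genes and more negative for 303, and these counts were 1078 and 260 against EMD-/y, 92 and 76 against +EMD, 587 and 79 against S54F, and 140 and 106 against Q133H. Fits of both lines alone gave 121 and 90 for EMD-/y and 351 and 33 for S54F. Total-sum scaling gave 503 more positive for EMD-/y, 72 for S54F and 1 for +EMD, and limma-trend gave 1 for +EMD and 2 more positive and 1 more negative for Q133H. Leaving out 1 library gave 142 to 475 and 131 to 215 for wildtype, 120 to 291 and 106 to 190 for EMD-/y, and up to 115 and 123 for Q133H, without its day 2 library A. The unpaired library was A in these groups, except at day 2 of wildtype and EMD-/y, where it was B. Where it was left out, that day kept 1 summed library, assumed to vary like the other groups. Of the 1670 called genes 1598 were also called with each of the 3 libraries counted, and 1183 to 1519 in the leave-outs. Of 345 called genes on the lists or named by the rule 264 were called in all 6. The causes of these movements were not tested. With 2 samples a day, small changes of variable genes were not detectable.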

Other observations

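The most read genes included several of the cytoskeleton and of translation. Eef1a1, the elongation factor that brings tRNA to the ribosome, was at 139052, 160326 and 156780.0 normalized reads at day 1 and 136133, 121971 and 127896 at day 2 (log2 change -0.19 ± 0.11). Actg1, a cytoplasmic actin, was at 54631, 63285 and 61022 and then 42291, 35232 and 33704 (-0.61 ± 0.13), and Vim, the intermediate filament of mesenchymal cells, at 47264, 62897 and 58004 and then 33004, 34283 and 35334 (-0.66 ± 0.14). At day 2 Acta1 (134546, 129036 and 151895) and Actc1 (76929, 94563 and 115626) had joined the most read genes.

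One predicted gene, whose reads could not be recovered, had a deposited level of 468444 at day 1 and 719658 at day 2, and was not tested.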
